A study of Mus musculus with 2 samples.

Results

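Il6, Csf1, Csf2 and Il3 encode the cytokines interleukin-6, CSF-1 (M-CSF), GM-CSF and interleukin-3. They were examined as the genes of myeloid growth factors that T cells can make. Members were the genes with a probe that the platform annotation assigns to one of these symbols alone, and 4 genes of 4331 with such a probe met this rule, each through 1 probe. The set was chosen by its array ratios in this same comparison, because Csf1 and Il6 stood at the top of the positive side. The ratios below therefore describe these arrays, and none of them was tested.

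The samples were CD5+ gamma delta T cells sorted from spleens, those of wildtype mice in 1 population and those of LAT3YF mice in the other. LAT is the membrane adaptor that links the T cell receptor to its downstream enzymes, and 3YF names tyrosine-to-phenylalanine changes in it. Total RNA of both populations was hybridised together on 2 arrays with the dyes reversed between them, termed the + polarity and - polarity profiles. On the + polarity array channel 1 held wildtype and channel 2 held LAT3YF, and on the other array the channels were exchanged. The labels do not give the age or number of the mice, whether animals were pooled, or whether the arrays used separate extracts, so the pair counts as 1 replicate of the comparison. Both populations passed the same CD5 selection, and neither carries any other treatment according to the labels.

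Interleukin-6 signals through its receptor chain IL-6R and the shared chain gp130 to JAK kinases and STAT3. Interleukin-3, GM-CSF and interleukin-5 use private alpha chains with a common beta chain and act mainly through JAK2 and STAT5. CSF-1 instead binds a receptor tyrosine kinase on monocytes and macrophages and sustains their survival. Activated T cells are known sources of interleukin-3 and GM-CSF, and the genes of these 2 factors lie side by side in the cytokine cluster that also holds Il5, Il13 and Il4.

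Sequences upstream of the 4 transcription starts are shown because Csf1 and Il6 had similar ratios while the neighbouring genes Csf2 and Il3 did not share them. Each run holds the 250 bases before the RefSeq start (GRCm38.p6), read 5′ to 3′ on the strand of the gene. These are Csf1 at chr3:107760470-107760719 (minus strand), Il6 at chr5:30012864-30013113 (plus strand), Csf2 at chr11:54249900-54250149 (minus strand) and Il3 at chr11:54267280-54267529 (minus strand). Capitals mark matches to an NF-kappaB type motif (3 G, any 2 bases, 3 T and 2 C), the AP-1 motif TGANTCA and the C/EBP motif TTGCNNAA, each searched on both strands.
Csf1: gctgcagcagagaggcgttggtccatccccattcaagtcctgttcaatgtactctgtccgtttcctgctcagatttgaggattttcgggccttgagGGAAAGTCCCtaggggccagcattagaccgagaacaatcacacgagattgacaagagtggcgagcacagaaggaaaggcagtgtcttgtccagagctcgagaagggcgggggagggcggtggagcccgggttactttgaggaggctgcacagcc
Il6: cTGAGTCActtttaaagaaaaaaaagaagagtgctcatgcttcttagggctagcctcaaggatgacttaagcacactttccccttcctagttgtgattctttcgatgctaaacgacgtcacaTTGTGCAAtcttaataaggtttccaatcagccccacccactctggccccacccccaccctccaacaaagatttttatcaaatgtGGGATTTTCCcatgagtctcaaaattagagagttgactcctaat
Csf2: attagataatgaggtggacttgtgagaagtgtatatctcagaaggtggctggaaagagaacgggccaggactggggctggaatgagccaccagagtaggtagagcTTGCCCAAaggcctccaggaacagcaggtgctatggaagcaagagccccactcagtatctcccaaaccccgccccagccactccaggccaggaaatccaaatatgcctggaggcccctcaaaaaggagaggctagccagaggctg
Il3: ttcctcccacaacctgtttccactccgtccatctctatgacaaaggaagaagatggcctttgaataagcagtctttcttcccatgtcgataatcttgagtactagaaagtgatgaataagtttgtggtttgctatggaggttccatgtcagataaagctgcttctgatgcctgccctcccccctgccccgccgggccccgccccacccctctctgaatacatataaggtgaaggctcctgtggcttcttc

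The windows of Csf1 and Il6 each held 1 match to the NF-kappaB type motif, and those of Csf2 and Il3 held 0. In Csf1 it lay 154 to 145 bases upstream on the strand opposite to the gene, and in Il6 it lay 44 to 35 bases upstream on the strand of the gene. By comparison, 1.41% of 32851 RefSeq windows of the same length held such a match. The Il6 window also held a match to the AP-1 motif 249 to 243 bases upstream, a motif found in 6.75% of windows. C/EBP matches occurred in Il6 (128 to 121 bases upstream) and in Csf2 (145 to 138 bases upstream), against 9.56% of windows. The NFAT core GGAAA was present in all 4 windows, at 3 positions in Csf1, 3 in Il6, 2 in Csf2 and 1 in Il3, but 55.6% of windows hold it. In Csf1 and in Il6 1 of these positions lay inside the NF-kappaB type match. The letters GATA occurred at 1 position in Il6, 3 in Csf2 and 2 in Il3, and in 53.6% of windows. The STAT motif TTCNNNGAA, found in 7.02% of windows, and the core promoter element TATAAA, found in 12.4%, had 0 matches in these 4 sequences. A match describes the letters only, and binding was not measured. Other spellings of these motifs and longer windows were not searched, so 0 matches does not mean that a gene lacks such a site. The set was chosen by its ratios, and a link between motifs and ratios was not tested.

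The deposited values are log ratios of the 2 channels, read here as log10 because the base is not stated. The sign of the - polarity array was turned so that a given sign stands for the same population on both arrays. Values are the + polarity ratio, the turned - polarity ratio and their mean ± SD over the 2 arrays. That error covers technical variation, and whether it covers more is unknown because the labels do not say if extracts were separate. It is not read as variation between animals. Which population the positive sign stands for is not settled by the labels, so positive and negative name 2 sides and can be exchanged throughout. A gene was called when its mean was at least 2-fold in size (0.301 in log10) with the same sign on both arrays, a rule of size and not a test.

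Csf1, which encodes the growth factor of macrophages, had log10 ratios of 1.33 (+ polarity) and 1.26 (- polarity). The arrays thus differed little, and both put the transcript far to the positive side. Its mean was 1.29 ± 0.052 (19.6-fold). Its ratio ranked 2 of 4331 genes on each array, behind Cysltr1 on the + polarity array and behind Il6 on the other. As in any bulk RNA, more cells with the transcript and more transcript per cell cannot be told apart here or in the ratios that follow.

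Il6, an inflammatory cytokine gene, had log10 ratios of 1.16 (+ polarity) and 1.28 (- polarity). Its mean was 1.22 ± 0.083 (16.7-fold), so Csf1 and Il6 were less than 1 SD of Il6 apart. Il6 ranked 1 by the - polarity ratio and 4 by the + polarity ratio. The order of Csf1 and Il6 was exchanged between the arrays, and it is not resolved by these data. Both SDs lie near the median SD of all genes, 0.0579.

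Csf2, the gene of GM-CSF, had log10 ratios of 0.289 (+ polarity) and -0.0959 (- polarity). The arrays gave opposite sides for it. Its mean was 0.0963 ± 0.27 (1.25-fold), smaller than its SD. Neither array reached 2-fold.

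Il3, the gene of interleukin-3, had log10 ratios of 0.542 (+ polarity) and -0.538 (- polarity). Each array alone was past 2-fold (3.48-fold and 3.45-fold), on opposite sides, and the mean was 0.0018 ± 0.76. As deposited, before turning, the values were 0.542 and 0.538, so the ratio of Il3 kept its sign when the populations exchanged channels. The channel part of its ratio, taken as the difference of the turned ratios divided by 2, was 0.540 (3.46-fold) and ranked 16 of 4331 genes in size. With 1 array per dye orientation, a dye effect and array error cannot be told apart in this part. It comes from the same difference between the arrays as the SD. For Csf2 that part was 0.192 (1.56-fold, rank 511). It was 0.037 for Csf1 (rank 2323) and -0.0585 for Il6 (rank 1671). The turned signs differed in 1750 of 4331 genes (40.4%), so differing signs alone do not set Csf2 or Il3 apart. Of these genes, 455 had a channel part at least as large as that of Csf2. A total of 181 genes had opposite turned signs and a channel part past 2-fold, Il3 among them. Intensities were not analysed here, so whether the Il3 and Csf2 probes were above background is unknown, and no difference between the populations was resolved for either gene.

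**Figure D1:**
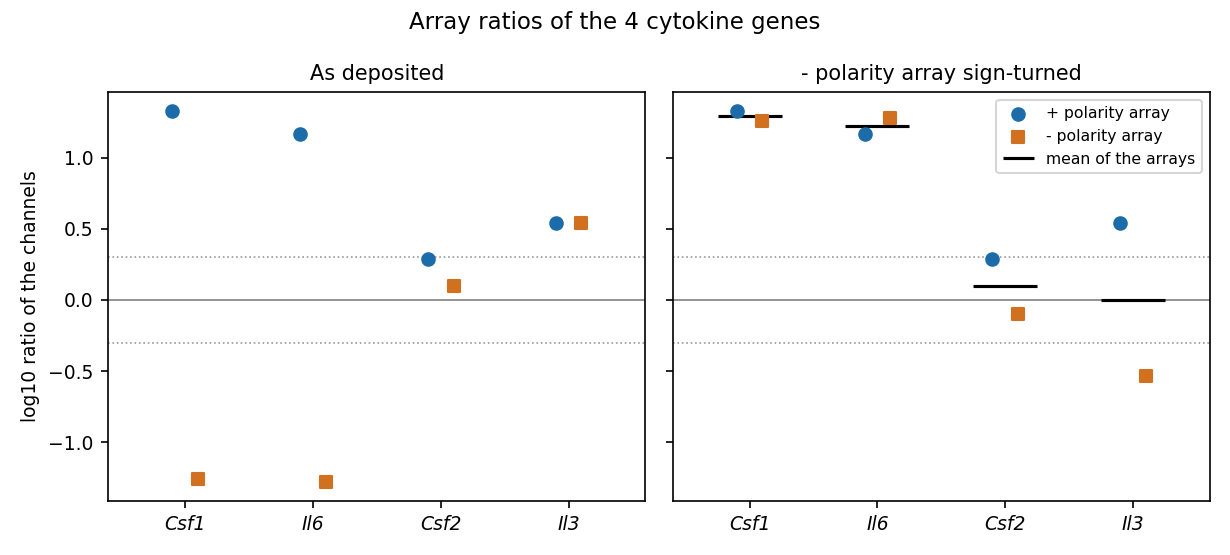
The log10 ratio of the 4 genes on the + polarity array (circles) and the - polarity array (squares), as deposited on the left and with the - polarity sign turned on the right, with bars at the mean and dotted lines at 2-fold. Csf1 and Il6 lie above 1.1 on both arrays after turning, whereas Csf2 and Il3 lie on opposite sides of 0.

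By the rule of size, 2 of the 4 members (Csf1 and Il6) were called positive and 0 negative. Over all genes 3.72% were called positive and 5.03% negative, 8.75% in all, and nothing is read from the share of members because they were chosen for these values. Csf1 and Il6 were also called at 3-fold, which follows from the same choice. The ratios of Csf1 and Il6 lay 0.169 apart, measured as the Euclidean distance between their pairs of array ratios. Csf2 lay 1.71 from Csf1 and 0.509 from Il3.

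**Figure D2:**
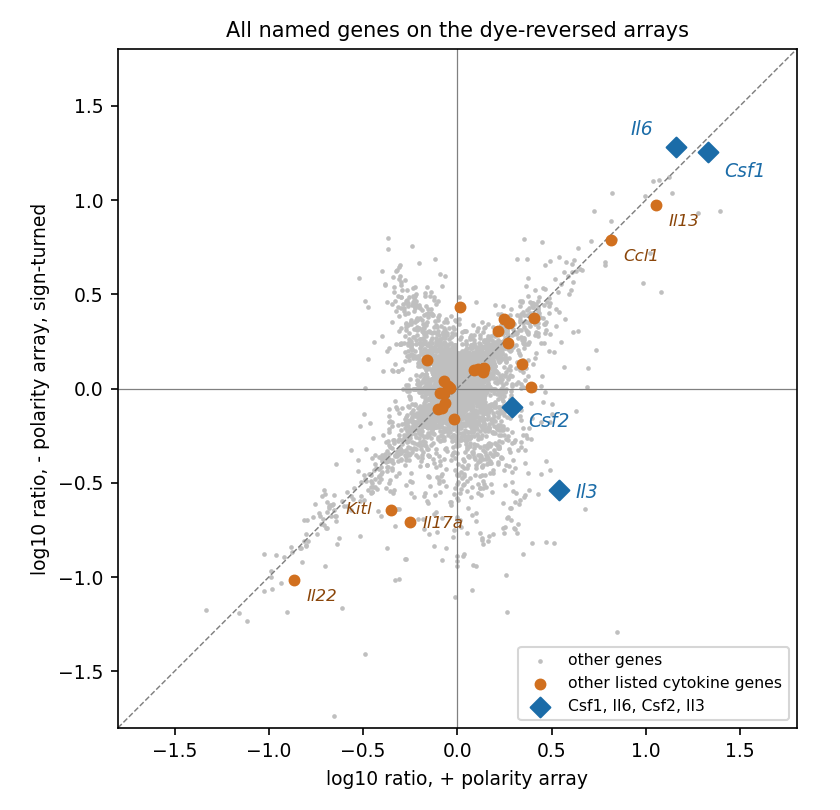
Each point is a gene, with its log10 ratio on the + polarity array on the x axis and the turned - polarity ratio on the y axis, and the dashed line marks equal ratios. Csf1 and Il6 (diamonds) sit at the upper right end near that line, while Il3 and Csf2 sit in the lower right quadrant, where the arrays disagree in sign.

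The genes with the most similar pair of array ratios were found by the same distance over the 2 arrays. Nearest to Csf1 were Ptgir, the prostacyclin receptor (distance 0.247), the aspartic protease gene Bace2 (0.293) and the inhibitory receptor gene Klrg1 (0.3002). Il6 was nearest to Ptgir (0.163), Klrg1 (0.197) and the adhesion molecule gene Cntn1 (0.218). For Csf1 all 3 distances exceeded that to Il6, and for Il6 Ptgir was slightly nearer than Csf1. Csf1 and Il6 were chosen for their large positive means. Their closeness, and the large positive ratios of the genes nearest to them, follow from that choice. Csf2 lay among genes with equally discordant arrays, and its nearest were Zfp101 (0.00379), Ak4 (0.011) and Tjp3 (0.0279). Those nearest to Il3 were Dsc2 (0.113), Fgf7 (0.115) and Lhfpl2 (0.129), each with opposite signs on the arrays.

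Relatives of the members among the ligands had smaller means than Csf1 and Il6, which follows from the choice of the largest means. A listed gene counts as measured below when it had a probe with that gene alone. Counts called in the lists stand beside 3.72% positive and 5.03% negative over all genes. No list was tested against these shares. Of 18 listed cytokines that use gp130 or the common beta chain or act as growth factors of blood cells, 10 were measured, with a median of 0.0479 against 0.0023 over all genes. Taken alone, the arrays gave medians of 0.188 (+ polarity) and 0.0558 (- polarity). Without the 4 members, 6 remained, with a median of -0.0113, 0 called positive and 1 called negative. That gene was Kitl, which encodes stem cell factor, with -0.349 and -0.644 on the arrays and a mean of -0.497 ± 0.21 (3.14-fold). Il5, the eosinophil growth factor gene, had 0.344 and 0.130 and a mean of 0.237 ± 0.15, below 2-fold. Il11, a gp130 cytokine gene, was at 0.0940 ± 0.0097, and Lif, another gp130 cytokine gene, at -0.0704 ± 0.0059. Both arrays gave these small values closely. Csf3, which encodes the granulocyte factor G-CSF, had -0.163 and 0.154, opposite signs as for Csf2 and Il3. Flt3l was at -0.0181 ± 0.041. Lif, Csf3 and Flt3l were named after their values were seen.

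Other cytokine and chemokine genes of activated T cells gave values on both sides. Of 24 listed, 21 were measured, with 5 called positive, 2 called negative and a median of 0.113. On single arrays 4 were past 2-fold positive and 1 negative (+ polarity), or 7 and 2 (- polarity). Il13, a type 2 cytokine gene, came nearest to Csf1 and Il6 in size, with 1.05 and 0.975 on the arrays and a mean of 1.01 ± 0.055. It was followed by the chemokine gene Ccl1 at 0.801 ± 0.020 and Ccl5 at 0.391 ± 0.021. Il10, an anti-inflammatory cytokine gene, was called at 0.311 ± 0.055 (2.04-fold). Tnfsf11, which encodes RANKL, a cytokine that acts with CSF-1 in osteoclast formation, was called at 0.307 ± 0.084 (2.03-fold). For both genes the + polarity array alone was below 2-fold, with 0.272 for Il10 and 0.247 for Tnfsf11. On the negative side were Il22 at -0.940 ± 0.11 and Il17a at -0.479 ± 0.32, the latter below 2-fold on the + polarity array alone (-0.252). The largest uncalled values were those of Ccl4 (0.260 ± 0.062), Mif (0.255 ± 0.022) and Il21 (0.224 ± 0.29). Il2 (0.107 ± 0.0021), Tnf (-0.0474 ± 0.033) and Ifng (-0.0592 ± 0.047), major products of activated T cells named after their values were seen, had small ratios, the largest 1.28-fold for Il2.

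**Figure D3:**
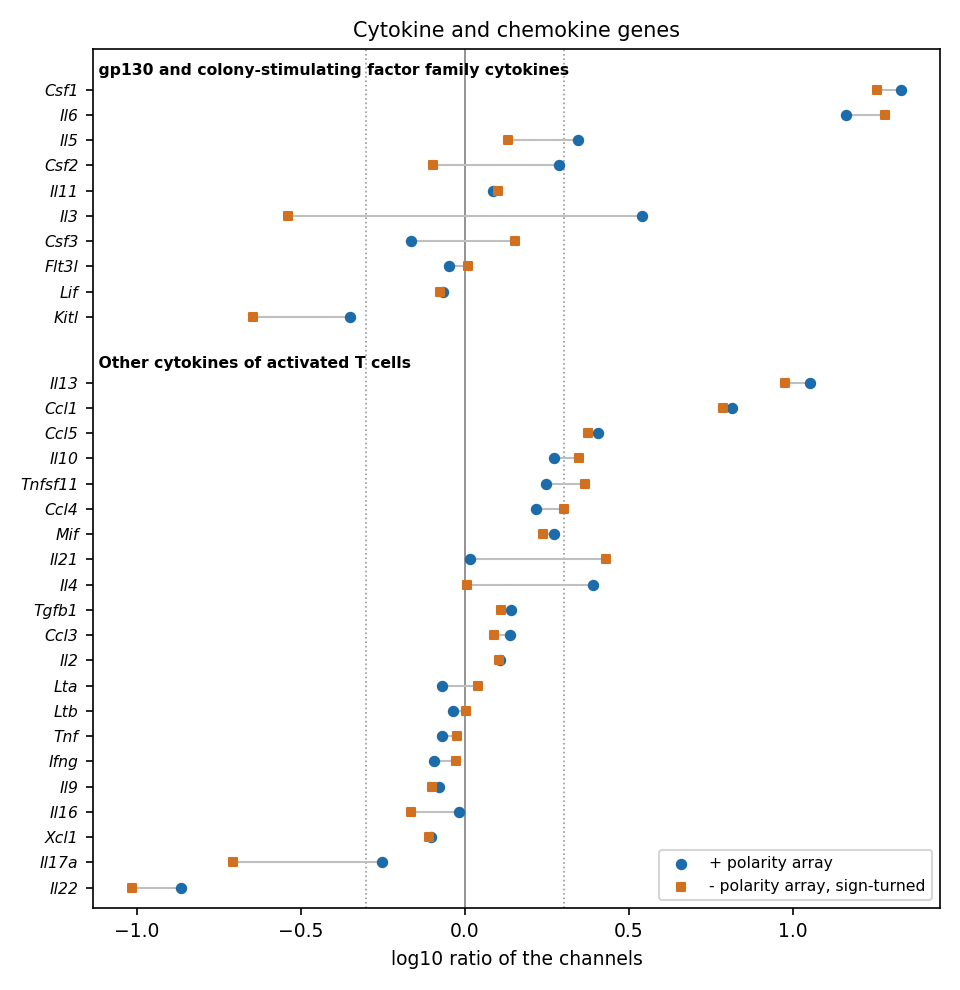
Each row is a cytokine or chemokine gene with its log10 ratio on the + polarity array (circle) and the turned - polarity array (square), joined by a line, and dotted lines mark 2-fold. Csf1, Il6 and Il13 have both points near or beyond 1, Il22 and Kitl have both beyond 2-fold on the negative side, and the line of Il3 spans 0.

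None of the measured receptor genes was called by the mean of both arrays, against 8.75% of all genes. With so few genes, this is not read as a trait of the list. Of 16 listed receptors of the members and their relatives, 13 were measured, 9 had a mean below 0, and the median was -0.0590 (-0.0597 from + polarity alone, -0.115 from - polarity alone). On single arrays 1 gene was past 2-fold on the negative side by + polarity (Il5ra, -0.307) and 3 by - polarity (Kit, Flt3 and Il6st). Il6ra, the ligand-binding chain for interleukin-6, had -0.221 and 0.161 on the arrays, with a mean of -0.0304 ± 0.27. Il6st, which encodes gp130, had -0.0233 and -0.344, with a mean of -0.184 ± 0.23. Csf2ra, the GM-CSF alpha chain gene, had -0.183 and 0.236, with a mean of 0.0267 ± 0.30. Each of these 3 means is smaller than its SD, and the arrays of Il6ra and Csf2ra disagree in sign. Il3ra, the interleukin-3 alpha chain gene, had 0.0275 and 0.0268, the closest agreement among the receptors, and a mean of 0.0272.

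The shared beta chain gene Csf2rb was measured by 2 probes that disagreed. The first gave -0.237 and -0.832 with a mean of -0.535 ± 0.42, past 2-fold, and the second gave -0.0450 and 0.231 with a mean of 0.0928 ± 0.19. Their average for the gene was -0.221 ± 0.11 and was not called. Its close relative Csf2rb2, a beta chain specific to interleukin-3, had 0.223 and -0.0998, with a mean of 0.0617 ± 0.23. Csf2rb and Csf2rb2 are similar in sequence, so signal may be shared between their probes. Among the relatives, Il5ra was at -0.218 ± 0.12, Lifr at -0.141 ± 0.029, Il27ra at 0.111 ± 0.054, Csf3r at -0.0590 ± 0.080 and Osmr at -0.0178 ± 0.091. Kit, the receptor of stem cell factor, had -0.249 and -0.348 and a mean of -0.298 ± 0.070, just under 2-fold on the same side as its ligand gene Kitl. Flt3 was at -0.243 ± 0.26. The CSF-1 receptor gene Csf1r was not analysed here.

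The measured JAK and STAT genes had ratios below 2-fold. Of 11 listed, 9 were measured, with 0 called, also on either array alone. Over all genes 8.75% were called by the mean, and 0 of so few genes is not read as a trait of the list. The median was 0.0820, and 0.0338 (+ polarity) or 0.0431 (- polarity) on single arrays. Jak3, the kinase of receptors with the common gamma chain, was the largest at 0.260 ± 0.0082 (1.82-fold), with nearly equal values on the arrays. Jak2, the kinase of the common beta chain, was at 0.121 ± 0.037 and Stat5a, its main STAT partner, at 0.113 ± 0.027. Stat5b was at 0.101 ± 0.081, and Stat3, the main STAT of interleukin-6 signalling, at -0.0202 ± 0.076, both named after their values were seen.

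Among target and feedback genes of the interleukin-6 and common beta chain pathways, 17 of 24 listed were measured, with 2 called positive and 0 negative. The - polarity array alone gave 3 positive and 4 negative, and the + polarity array alone 2 and 0. The median was -0.0661 (-0.0244 from + polarity alone, -0.0927 from - polarity alone), and 12 of the 17 had a mean below 0. Cish, a STAT5 target that inhibits cytokine receptors, had 0.837 and 0.791, with a mean of 0.814 ± 0.032 (6.52-fold). Socs1, another feedback inhibitor, had 0.347 and 0.348, with a mean of 0.348 (2.23-fold). The largest uncalled values were those of Junb (-0.289 ± 0.14), the kinase gene Pim1 (-0.232 ± 0.052) and the phosphatase gene Ptpn11 (0.230 ± 0.13). The value of Ptpn11 averages 2 probes, 1 past 2-fold at 0.329 ± 0.086 and the other at 0.132 ± 0.17. Socs3, the classical feedback gene of interleukin-6 signalling, named after its value was seen, was at -0.0641 ± 0.026 (1.16-fold). Cish and Socs1 thus lay on the side of Il6 and Csf1, whereas Junb, Pim1 and Socs3 lay on the other, each below 2-fold by the mean. Whether the ratios of these genes reflect signalling by the members was not tested.

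**Figure D4:**
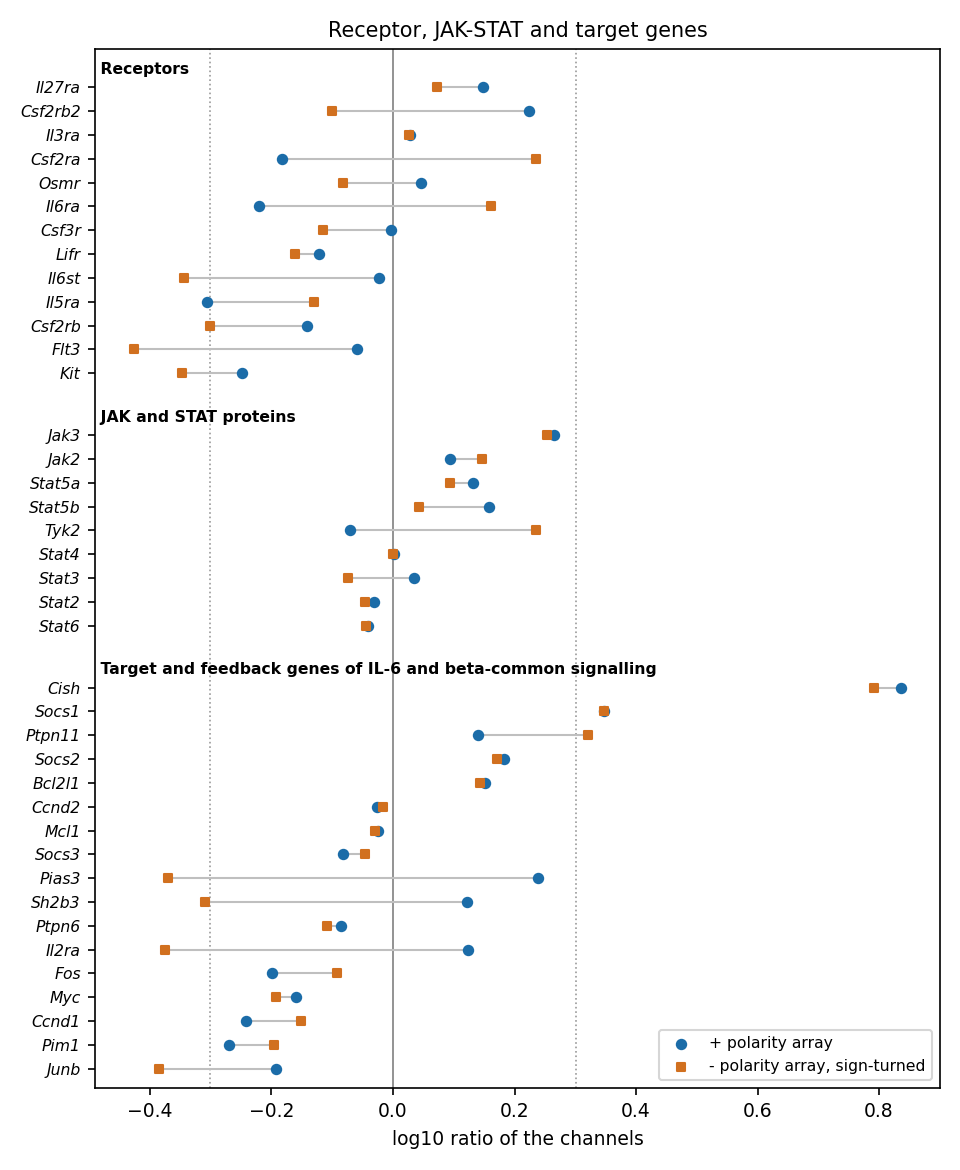
Each row is a receptor, JAK or STAT, or target gene with its log10 ratio on the + polarity array (circle) and the turned - polarity array (square), and dotted lines mark 2-fold. Only Cish and Socs1 have both points beyond 2-fold, and the points of Il6ra, Csf2ra and Csf2rb2 lie on opposite sides of 0.

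Transcription factors known to act on cytokine genes were mixed. Of 36 listed, 29 were measured, 3 were called positive and 1 negative, and the median was -0.0178 (0.0189 from + polarity alone and -0.0055 from - polarity alone). Single arrays gave 4 positive and 0 negative (+ polarity), or 3 and 5 (- polarity). Batf, an AP-1 family factor of T cells, had 0.578 and 0.669, with a mean of 0.624 ± 0.064 (4.20-fold). Gata3, the factor of type 2 T cells, was at 0.593 ± 0.0057, and Irf4, which acts together with Batf, at 0.443 ± 0.059. Jun, an AP-1 subunit, was called negative with -0.3005, just under 2-fold, and -0.382 and a mean of -0.341 ± 0.057 (2.19-fold). The AP-1 family genes Batf and Jun therefore lay on opposite sides. The largest uncalled values were those of Runx1 (0.294 ± 0.075), Junb and the NF-kappaB subunit gene Rel (-0.244 ± 0.081). Of 13 listed regulators of cytokine message stability, only 3 were measured and 0 were called (1 positive by - polarity alone, Tial1), with a median of 0.0717. Zfp36, which encodes the message-destabilising protein tristetraprolin, was at -0.214 ± 0.010, Elavl1 at 0.150 ± 0.097 and Tial1 at 0.0717 ± 0.35. That median was -0.175 for + polarity alone and 0.219 for - polarity alone.

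Csf1 and Il6 can also be made by cells other than T cells, and marker lists for those cells were set beside them. Of 23 measured macrophage and dendritic cell markers, 15 were called negative and 0 positive, with means from -1.17 (Slc40a1) to 0.0225 and a median of -0.442, on the side opposite to Csf1 and Il6. Of 14 measured stromal and endothelial markers, 1 was called positive, Cxcl13 at 0.305 ± 0.095, and 0 negative. Cxcl13 was below 2-fold on the + polarity array alone (0.238), where 0 of these markers were past it. Their means ranged from -0.250 (Pecam1) to 0.305, and the median was 0.0509 (0.0560 from + polarity alone, -0.0328 from - polarity alone). The arrays gave opposite signs for 9 of these 14 markers, against 40.4% of all genes, so most of their ratios were not resolved. Of 6 measured mast cell and basophil markers, 0 were called (1 in each direction by - polarity alone), with means from -0.298 (Kit) to 0.200 (Fcer1a) and a median of -0.0477 (-0.168 from + polarity alone, 0.0128 from - polarity alone). Kit, Flt3 and Csf3r stand both in a marker list and in the receptor list. Thy1, named after its value was seen, stands both in the stromal and endothelial list and among the T cell identity genes. Of 13 measured B cell markers, 4 were called negative, led by Ighm at -0.719 ± 0.031, and 0 positive, with a median of -0.174. Of 15 measured T cell identity genes, 3 were called positive (Cd5, Sox13 and Cd6) and 2 negative (Cd8a and Cd8b1), with a median of 0.0954. Cd5, the gene of the marker used to select both populations, was at 0.614 ± 0.0077 (4.11-fold). Cd8a was at -1.20 ± 0.77 and Cd8b1 at -1.18 ± 0.082. Chains of the T cell receptor complex, named after their values were seen, were mixed. Cd3e was at 0.110 ± 0.10, Cd3g at 0.0954 ± 0.025, Cd3d at -0.0074 ± 0.0063 and Cd247 at -0.185 ± 0.13. Ratios carry no level, so no marker could be called absent from either population, and no named probe for the gamma delta receptor constant genes in the list was used here. The part of these other cell types in the ratios of Csf1 and Il6 was not tested.

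**Figure D5:**
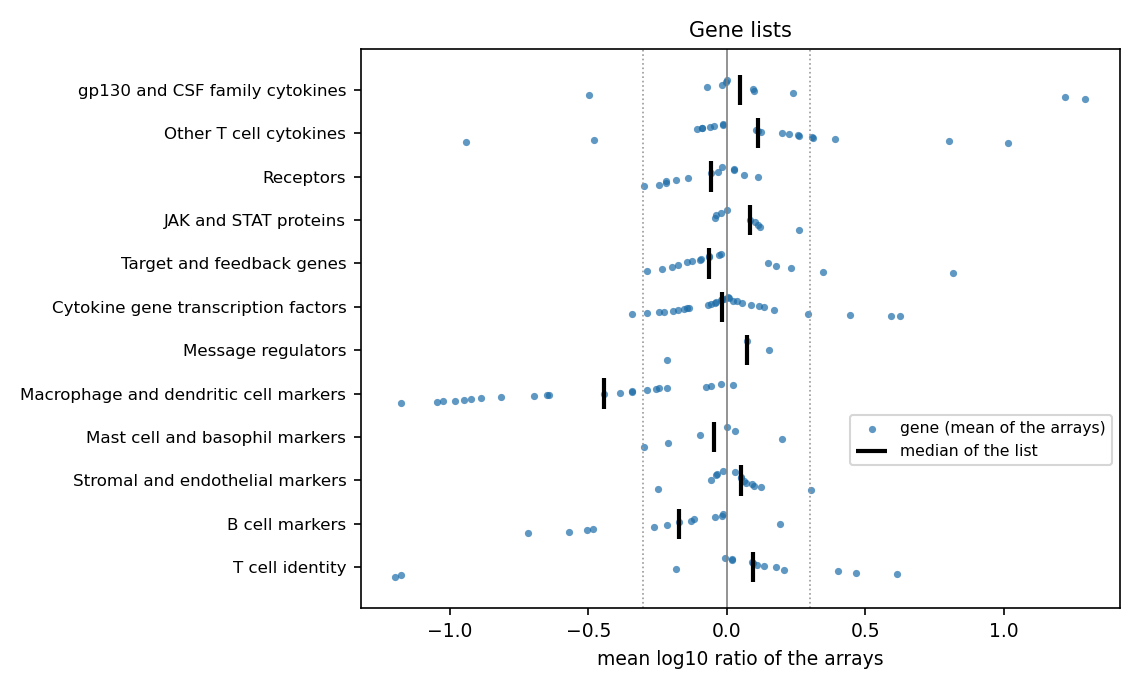
Each point is the mean log10 ratio of a gene, each row is a gene list, black bars mark the median of the list and dotted lines mark 2-fold. Csf1 and Il6 are the 2 points above 1.2 in the top row, and the macrophage and dendritic cell markers lie on the other side with a median of -0.442.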

How the data were processed

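The authors deposited 1 log ratio per probe and array, described by the labels as ratio profiles of dye-reversed hybridisations. The deposited values were read as log10 ratios of the channels, as made by the authors, with base 10 assumed. The base, numerator, scanner, background correction and normalization were not given in the sources used here. Column medians were -0.00284 and 0.00101. The deposited columns correlated at r = -0.301 across 8014 probes, and the - polarity column was multiplied by -1 (Python 3.11.15, pandas 2.3.3). Probes with 1 annotated gene (4654) were averaged per gene, while 73 with several genes and 3287 with none were left out. All 4 member symbols matched RefSeq (GRCm38.p6).

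With 1 replicate no test was made. The number of arrays limits the precision. Members and the 12 gene lists were chosen with earlier results of these data known. Named genes were the members, measured receptors, up to 6 called genes per list and side, the 3 largest uncalled genes per list, called or interleukin neighbours and the 3 nearest genes per member. Marker lists are given by their leading genes, and names outside the rule are marked in the text. Alternatives covered the threshold, log base, centring, scaling, probe summary and single arrays.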

Additional observations from a re-analysis of the deposited data

How the results depend on the processing

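Csf1 and Il6 were called positive under every alternative tried, namely thresholds of 1.5-fold and 3-fold, other log bases, centred or scaled arrays, other probe summaries and single arrays, and negative only by the exchange of all signs. Their choice for large means fixed most of this in advance, so nothing is read from it. Other probe summaries could not change the members, because each had 1 probe. Csf2 was called under none of these alternatives. Il3 was called only on single arrays, positive at 0.542 on the + polarity array and negative at -0.538 on the - polarity array, so 3 members were called on either array alone. The log base sets the folds. If the deposited values were log2, Csf1 would be 2.45-fold and Il6 2.33-fold, and if natural logarithms, 3.64-fold and 3.39-fold. With all signs exchanged, as the unsettled numerator allows, the means are -1.29 for Csf1 and -1.22 for Il6. The number of genes called was 774 at 1.5-fold and 144 at 3-fold against 379 in the main setting, 17 if the values were log2 and 62 if natural logarithms, and from 452 (+ polarity) to 742 (- polarity) on single arrays. Centring gave 380 and scaling 379. Signal over background was not analysed here, and 1 probe per member leaves no check by another probe.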

Other observations

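Csf2 and Il3 are adjacent protein-coding genes in the RefSeq order of chromosome 11, and Il5 lies among the 8 nearest protein-coding genes on one side of each. This use of protein-coding genes was chosen after the data were seen. Of the 16 nearest protein-coding neighbours of Csf2 and of Il3, 7 were measured for each, with means from -0.313 to 0.237. Il5 was the highest at 0.237 ± 0.15 and the exchange factor gene Rapgef6 the lowest at -0.313 ± 0.031, the only neighbour called. Around Csf1 on chromosome 3, 7 of 16 neighbours were measured, with means from -0.114 to 0.152 and 0 called. Around Il6 on chromosome 5, 3 of 16 were measured, with means from -0.118 to 0.0654 and 0 called. The neighbours measured beside Csf1 and Il6 had smaller means than theirs. The choice of these genes for the largest means fixed this in advance, so nothing is read from it. With genes of any kind as neighbours, 3 were measured around Csf1 and 1 around each of the others, and 0 were called. For Csf2 that gene was Il3 and for Il3 it was Csf2. These members also count among the 7 protein-coding neighbours measured for each other.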
